A study of Mus musculus with 10 samples.

Results

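Hox cluster genes encode the homeodomain transcription factors that give cells along the body axis and in the limbs their positional identity. The group was taken as every gene on the array whose symbol is Hox, a cluster letter A to D and a number, together with Hoxd3os1, a noncoding RNA gene of the HoxD cluster, a rule that uses names and no measured value. It held 34 genes of 18193 with a probe set of their own, namely 33 numbered Hox genes and Hoxd3os1, where the rule counted 39 numbered genes. Of the numbered genes outside the 34, Hoxb8 and Hoxd4 were covered by probe sets shared with Hoxb7 and Hoxd3, and the others were not analysed here. The cells were 3T3-L1, an immortal mouse fibroblast line that serves as a model of preadipocytes and can be turned into fat cells in culture, so each group samples the same line. They carried 60 nM of an siRNA against LSD1 (siLsd1) or 60 nM of a scrambled siRNA (siC), and RNA was taken with no change of medium in between. The groups were siLsd1 at 24 h with 2 arrays, siC at 24 h with 2, siLsd1 at 48 h with 3 and siC at 48 h with 3, on 10 Affymetrix arrays in all. Cells of the 24 h groups were at passage 19 and those of the 48 h groups at passage 21, so time and passage cannot be told apart.

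In vertebrates the Hox genes lie in clusters in which the order along the chromosome matches the order in which they are expressed, low numbers towards the head and high numbers towards the tail and the limb tips. Cultured fibroblasts keep the Hox pattern of the site they came from, and the choice between a silent and an active gene is held by Polycomb group complexes, which repress, and Trithorax and MLL complexes, which maintain activity. LSD1, the product of Kdm1a, removes methyl groups from histone H3 and belongs to the CoREST repressor complex.

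The arrays answered 2 questions about these genes: how they differed between siLsd1 and siC cells, and how they differed between the 48 h and 24 h control cells. With siLsd1, Hoxa3, Hoxa5 and Hoxb3 fell and Hoxc13 rose, by 1.26- to 1.47-fold over the mean of both times. In the control cells at 48 h, Hoxd3os1, Hoxd3, Hoxd11 and Hoxd9 were 6.30-, 2.90-, 2.25- and 1.56-fold higher than at 24 h, while Hoxc13 was 2.02-fold lower. Levels are the deposited linear intensities of probe sets, and changes are differences of their log2 values. A gene was called at a limma adjusted p under 0.05 over the 13644 genes tested. The siLsd1 changes named are 4 of 24 tested Hox genes, or 16.7%, against 23.8% of all genes called. Those between the times are 5 of 24, or 20.8%, against 24.2% of all genes. Each of the siLsd1 calls and some of the others depended on single arrays, as given below.

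The targeted gene Kdm1a had intensities of 1001 and 971 on the siLsd1 24 h arrays, against 1559 and 1621 on the siC 24 h arrays. The later siLsd1 arrays had 1352, 1336 and 897, against 1596, 1787 and 1775 on the later siC arrays. All 5 siLsd1 arrays lay below all 5 siC arrays, and the mean change over both times was −0.62 (SE 0.11, limma adjusted p 0.00481), which stayed called in each of the 21 alternatives. The Kdm1a changes at 24 h and 48 h were −0.69 and −0.55 (limma adjusted p 0.0473 and 0.0338), and these calls were lost in 11 and 10 of 22 alternatives, among them any single 24 h array left out and the replicate block. Without siLsd1 48 h replicate 3 the 48 h change was −0.35 and was called (limma adjusted p 0.00277), and the mean change was −0.52. Array medians lay between 35.6 and 40.6 intensity units, and precision is limited by how few arrays there are. Over 6943 bright genes siLsd1 48 h replicate 3 differed from its replicates by an SD of 0.441 and 0.439 in log2 units, where other pairs within a group differed by 0.0892 to 0.205. It enters the 48 h changes, the mean of both times and the difference between the times directly, and the other tests through the shared spread. For this reason 48 h changes and counts without it are also given for the Hox genes, and counts without it for most of the other lists. The labels call the replicates biological but do not say that they came from separate cultures, so every p-value reflects only how far these samples scatter, which may be technical. Of 14 fibroblast and preadipocyte markers on the array 13 were above the dim threshold, with Cd34 below it, against 2 of 7 endothelial, 4 of 9 epithelial and neural and 6 of 8 macrophage and leukocyte markers.

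Of the 34 Hox genes 24 were bright enough to be tested and 10 were dim, that is, among the lowest 25% of all genes, with means not above 18.4 intensity units. The tested genes numbered 8 of 9 in HoxA, 7 of 9 in HoxB, 3 of 7 in HoxC and 6 of 9 in HoxD. The dim genes were Hoxa13, Hoxb6, Hoxb13, Hoxc4, Hoxc5, Hoxc8, Hoxc10, Hoxd1, Hoxd12 and Hoxd13, with single intensities between 1.93 and 30.2 and means between 4.84 and 13.6. They thus included all the group 13 genes outside HoxC, which pattern the most distal limb and the tail, and 4 of the 7 HoxC genes. The gene just above the threshold was Hoxb1, with a mean of 20.3, and the genes just below it were Hoxb13 and Hoxb6, with 13.6 and 13.3. These means over all 10 arrays are of log2 values, turned back to intensity units. A dim gene can be silent or poorly detected by its probes, and levels of different genes are not set against each other, because probe sets differ in efficiency.

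**Figure D1:**
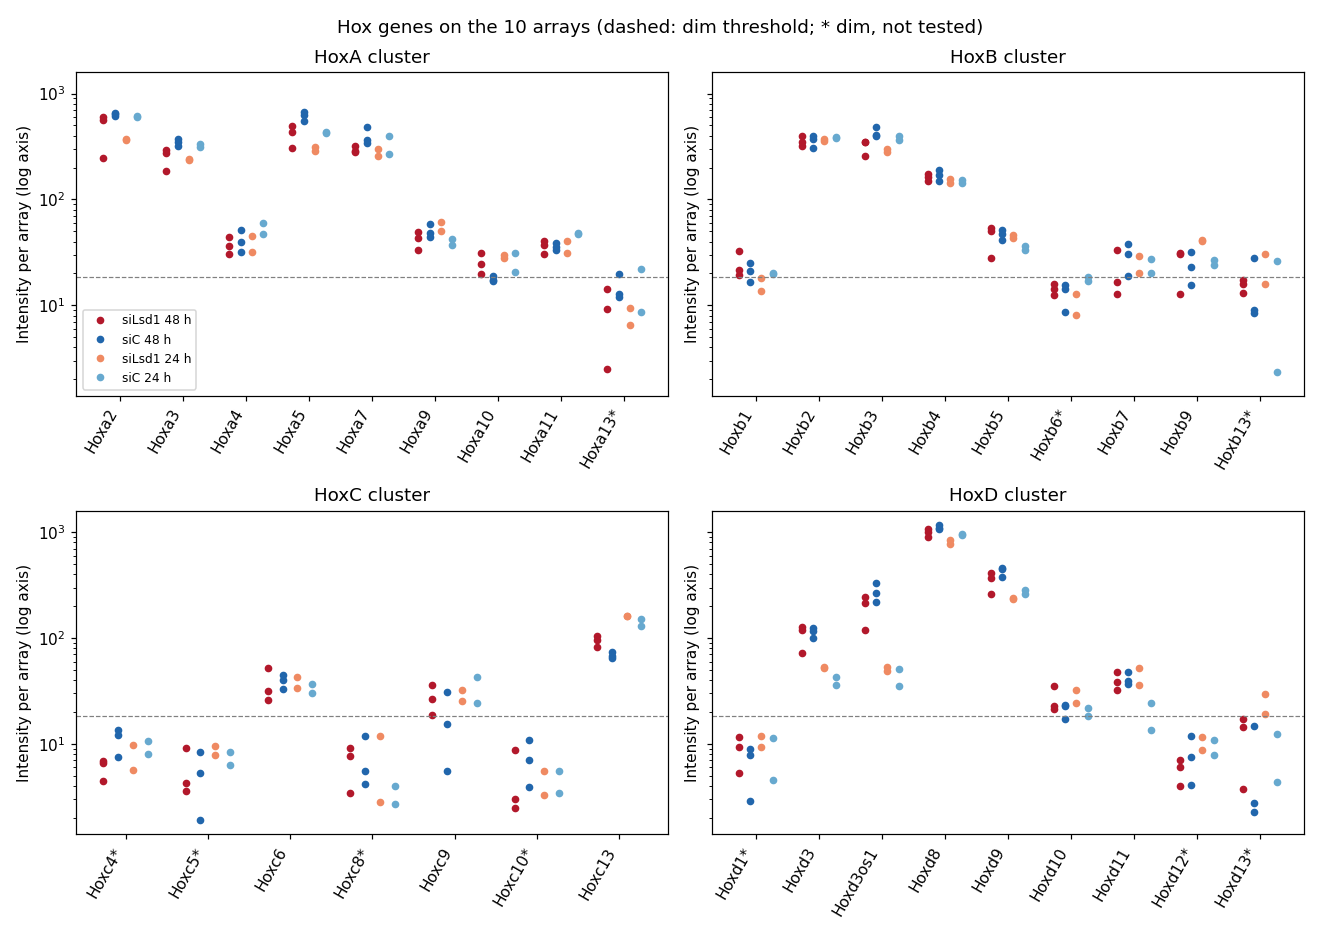
Intensity on a log axis of each of the 34 Hox genes on each of the 10 arrays, 1 panel per cluster, with the groups siLsd1 48 h, siC 48 h, siLsd1 24 h and siC 24 h side by side and each point 1 array. The dashed line marks the dim threshold of 18.4, and asterisks mark the 10 genes not tested; Hoxd3os1 shows the widest gap between the times, with 119 to 334 at 48 h and 35.3 to 53.1 at 24 h.

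The comparison of siLsd1 with siC asks how Hox transcripts differed once LSD1 was reduced in undifferentiated preadipocytes. At 24 h limma called 0 of the 24 tested Hox genes, against 5.39% of all genes (2.6% higher and 2.79% lower), and 4, or 16.7%, had an unadjusted p under 0.05, against 22.5% of all genes. At 48 h it called 2, or 8.33%, 1 higher and 1 lower, against 12.7% of all genes (6% higher and 6.67% lower). Over the mean of both times it called 4, or 16.7%, 1 higher and 3 lower, against 23.8% of all genes (10.1% higher and 13.7% lower), so the share of Hox genes called was below that of all genes in each of these comparisons. The tested Hox genes were also dimmer, with a median log2 intensity per array of 5.49 to 6.13, against 7.91 to 8.12 over all genes tested. Whether this lowered the share called was not tested. The median log2 change of the 24 genes was −0.04 at 24 h, −0.14 at 48 h and −0.05 over both times, beside −0.02 in each case over all genes tested. With siLsd1 48 h replicate 3 left out it was −0.08 at 48 h and −0.06 over both times, and 7 of the 24 changes at 48 h turned sign, none of them called with all arrays.

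Hoxa5 (Entrez gene 15402), which patterns the lower neck skeleton and the lung, had 289 and 315 on the siLsd1 24 h arrays, against 421 and 437 on the siC 24 h arrays. At 48 h it had 429, 494 and 306 with siLsd1, against 549, 622 and 666 with siC. All siLsd1 arrays lay below all siC arrays of the same time. The log2 change of Hoxa5 was −0.51 at 24 h (SE 0.19, limma adjusted p 0.156), −0.60 at 48 h (SE 0.16, limma adjusted p 0.0363) and −0.56 for the mean (SE 0.13, limma adjusted p 0.0119). With siLsd1 48 h replicate 3 left out it was called at each time, at −0.51 and −0.41 (limma adjusted p 0.00468 and 0.0140). The 48 h call was lost with any single 24 h array left out (limma adjusted p 0.0598 to 0.0628) and with siC 48 h replicate 1, 2 or 3 left out (0.0689, 0.115 and 0.110), and the call for the mean without siLsd1 24 h replicate 1 (0.0606). The other, dimmer Hoxa5 probe set gave changes of 0.02 at 24 h and −0.28 at 48 h, and was not called.

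Hoxa3 (Entrez gene 15400), needed for the thymus, the parathyroid and the throat skeleton, had 235 and 242 with siLsd1 at 24 h, against 334 and 310 with siC. At the later time Hoxa3 had 294, 274 and 187 with siLsd1, against 368, 319 and 350.0 with siC. Neither pair of groups overlapped. Its log2 change was −0.43 at 24 h (SE 0.19) and −0.48 at 48 h (SE 0.16), neither of them called (limma adjusted p 0.212 and 0.0661), and the mean of −0.46 was called (SE 0.12, limma adjusted p 0.0245). With siLsd1 48 h replicate 3 left out Hoxa3 was called at both times, at −0.43 and −0.28 (limma adjusted p 0.00609 and 0.0440). The call for the mean was lost with any single 24 h array left out (limma adjusted p 0.0628 to 0.0905) and without siC 48 h replicate 1 or 3 (0.0519 and 0.0523). The probe set carries the suffix for probes that match more than 1 transcript, and another Hoxa3 probe set above the threshold gave −0.25 at 24 h and −0.00 at 48 h. A further Hoxa3 probe set had a dim mean and was not tested. It had 53.9, 51.6 and 65.2 on the siC 48 h arrays, against 4.24, 11.1 and 9.06 with siLsd1. At 24 h it had 16.9 and 4.95 with siC and 6.42 and 3.43 with siLsd1. On the remaining dim Hoxa3 probe set the 48 h groups overlapped.

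Hoxb3 (Entrez gene 15410), which acts in the hindbrain, had 282 and 299 with siLsd1 at 24 h, against 363 and 400 with siC. On the 48 h arrays Hoxb3 had 349, 346 and 259 with siLsd1, against 396, 404 and 487 with siC. The groups of each time were separate. The mean log2 change was −0.41 (SE 0.11, limma adjusted p 0.0196), from −0.39 at 24 h and −0.44 at 48 h (limma adjusted p 0.192 and 0.0561). Without siLsd1 48 h replicate 3 the 24 h change was called as well (limma adjusted p 0.0202), and the call for the mean was lost with any single 24 h array left out (0.0507 to 0.0845). A dimmer Hoxb3 probe set gave −0.44 at 24 h and −0.14 at 48 h.

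Hoxc13 (Entrez gene 15422), known for its part in hair and nail formation, went the other way. It had 160 and 163 with siLsd1 at 24 h, against 130 and 150 with siC, and 96.6, 82.6 and 105 with siLsd1 at 48 h, against 68.2, 65.1 and 74.4 with siC. Every siLsd1 array again stood outside the siC range of its time. The log2 change was 0.21 at 24 h (SE 0.15, limma adjusted p 0.455), 0.45 at 48 h (SE 0.12, limma adjusted p 0.0432) and 0.33 for the mean (SE 0.098, limma adjusted p 0.0364). The 48 h call was lost with any single array of the siC or siLsd1 24 h groups or of the siC 48 h group left out (limma adjusted p 0.0624 to 0.141), and with siLsd1 48 h replicate 1 or 3 left out (0.0765 and 0.0617). The call for the mean was lost with any single 24 h array left out (limma adjusted p 0.0607 to 0.137), with siC 48 h replicate 1 or 2 left out (0.0602 and 0.0821) and with siLsd1 48 h replicate 1 left out (0.0595).

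**Figure D2:**
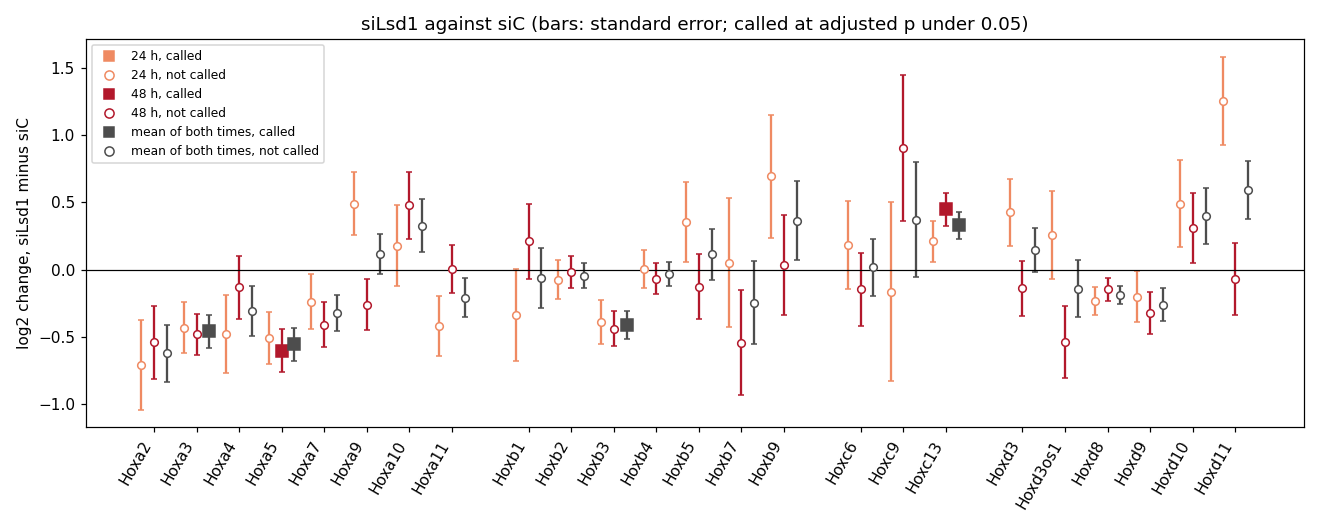
Log2 change (siLsd1 minus siC) of the 24 tested Hox genes in cluster order, 1 marker for each time and 1 for their mean, with standard errors; filled squares are called genes and open circles are not. Hoxa5 and Hoxc13 are called at 48 h, and Hoxa3, Hoxa5, Hoxb3 and Hoxc13 for the mean.

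Across HoxA the siLsd1 changes of 6 of 8 tested genes were negative at 24 h and of 6 at 48 h, with medians of −0.43 and −0.34. The 48 h median was −0.12, with 7 of 8 negative, when siLsd1 48 h replicate 3 was left out. Hoxa2, which acts in the hindbrain and the second pharyngeal arch, showed how far 1 array weighed, and it is named here after its values were seen. It had 374 and 365 with siLsd1 at 24 h, against 595 and 612 with siC, and 601, 567 and 246 with siLsd1 at 48 h, against 651, 640 and 620 with siC. The 246 came from siLsd1 48 h replicate 3, well below the other siLsd1 48 h arrays. With that array Hoxa2 was not called at 24 h (log2 change −0.71, SE 0.33, limma adjusted p 0.245), and without it the same change had an SE of 0.070 and a limma adjusted p of 5.16e-05. Hoxa4 had changes of −0.48 and −0.13 at 24 h and 48 h, Hoxa7 −0.24 and −0.41, Hoxa9 0.49 and −0.26, Hoxa10 0.18 and 0.48, and Hoxa11 −0.42 and 0.00, none of them called. A dimmer Hoxa9 probe set gave −0.39 at 24 h and −0.24 at 48 h, neither called. Without that array the 48 h changes of Hoxa2, Hoxa4, Hoxa7, Hoxa9, Hoxa10 and Hoxa11 were −0.12, −0.01, −0.39, −0.11, 0.31 and −0.08.

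In HoxB, 3 of 7 changes were negative at 24 h and 5 at 48 h, and none but Hoxb3 was called, and that for the mean. Hoxb2 and Hoxb4 had small changes, −0.07 and 0.00 at 24 h and −0.01 and −0.07 at 48 h, with 95% intervals of the 48 h change of −0.28 to 0.25 and −0.32 to 0.19. Hoxb1, Hoxb5, Hoxb7 and Hoxb9 had changes of −0.34, 0.35, 0.05 and 0.69 at 24 h and 0.21, −0.13, −0.54 and 0.03 at 48 h. Without siLsd1 48 h replicate 3 those 48 h changes were −0.02, 0.17, −0.25 and −0.17, so that Hoxb1, Hoxb5 and Hoxb9 turned sign, as did Hoxb2 at 0.06, while Hoxb3 was −0.30 and Hoxb4 −0.07. In HoxC only 3 genes were tested; Hoxc6 and Hoxc9 had changes of 0.18 and −0.16 at 24 h and −0.15 and 0.91 at 48 h, neither called, and the Hoxc9 value had an SE of 0.54. The 48 h changes of Hoxc6, Hoxc9 and Hoxc13 were −0.44, 0.68 and 0.37 with the outlying array left out, none of them called.

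In HoxD none of the 6 tested genes was called with siLsd1. Hoxd11 (Entrez gene 15431), which shapes the forearm together with Hoxa11, came closest, with 51.8 and 36.1 on the siLsd1 24 h arrays, against 24.5 and 13.4 on the siC 24 h arrays, 1 of which lies below the dim threshold. At 48 h it had 38.3, 47.9 and 32.2 with siLsd1, against 39.2, 36.6 and 47.5 with siC, and those groups overlapped. Its log2 change was 1.26 at 24 h (SE 0.33, limma adjusted p 0.0560) and −0.07 at 48 h (limma adjusted p 0.887), and without siLsd1 48 h replicate 3 the 24 h change was called (limma adjusted p 0.0146). Hoxd8, also named after its values were seen, had changes of −0.23 and −0.15 at 24 h and 48 h, of which the first was called without that array (limma adjusted p 0.0401). Hoxd3, Hoxd3os1, Hoxd9 and Hoxd10 had changes of 0.43, 0.26, −0.20 and 0.49 at 24 h and −0.14, −0.54, −0.32 and 0.31 at 48 h. Without that array the 48 h changes were 0.11, −0.22, −0.13 and 0.08 for these genes, 0.07 for Hoxd11 and −0.08 for Hoxd8, so Hoxd3 and Hoxd11 turned sign, and the change of Hoxd3os1 for the mean was 0.02, against −0.14 with it.

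Without siLsd1 48 h replicate 3 limma called 6 Hox genes at 24 h, or 25%, where 25.5% of all genes were called. These were Hoxa2, Hoxa3, Hoxa5, Hoxb3 and Hoxd8, lower with siLsd1, and Hoxd11, higher. At 48 h it called Hoxa3 and Hoxa5, 2 genes or 8.33% against 18.1% of all genes, and for the mean 7 genes, or 29.2% against 33.8% of all genes, the same 6 and Hoxc13. The share of Hox genes called lay near or below that of all genes with this array left out as well. In that fit the mean changes of Hoxa3, Hoxa5, Hoxb3 and Hoxc13 were −0.36, −0.46, −0.34 and 0.29, each smaller in size than with all arrays. The count for the mean was 2, 2, 0, 1 and 2 without siC 24 h replicate 1, siC 24 h replicate 2, siLsd1 24 h replicate 1, siLsd1 24 h replicate 2 and siC 48 h replicate 1. The 48 h count was 0 with any single 24 h array or any siC 48 h array left out.

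By position, 7 of 10 tested genes of groups 1 to 5 had a negative siLsd1 change at 24 h and 9 of 10 at 48 h, with medians of −0.36 and −0.14. Of the 13 tested genes of groups 6 to 13, 5 were negative at 24 h and 7 at 48 h, with medians of 0.18 and −0.07. The 48 h values rested in part on siLsd1 48 h replicate 3. Without it 7 of the 10 genes of groups 1 to 5 were negative at 48 h, with a median of −0.04, and 8 of the 13 of groups 6 to 13, with a median of −0.08. All 3 genes called lower for the mean were of groups 3 and 5, and the 1 called higher was of group 13. Of all genes 13.7% were called lower and 10.1% higher for the mean. Without that array Hoxa2 and Hoxd8 were also called lower for the mean, and Hoxd11 higher, so the calls were then less divided by position. The difference between the low and high groups was not tested.

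The interaction, that is the siLsd1 change at 48 h minus that at 24 h, was called for 0 of 24 Hox genes, where 0% of all genes were called by limma. At an unadjusted p under 0.05 stood Hoxd11 at −1.32 (95% interval −2.27 to −0.37, limma adjusted p 0.574) and Hoxa9 at −0.75 (−1.42 to −0.08, limma adjusted p 0.699), 2 genes or 8.33%, against 6.57% of all genes. The other, dimmer Hoxa9 probe set went the other way, at 0.15 in a fit of all probe sets, and was not called (limma adjusted p 0.986). Without siLsd1 48 h replicate 3 Hoxa2 was called, with a difference of 0.58 (limma adjusted p 0.0165), where 1.47% of all genes were. For Hoxa3, Hoxa5 and Hoxb3 the differences were −0.05, −0.09 and −0.05, with 95% intervals from −0.60 to 0.50, −0.65 to 0.46 and −0.52 to 0.42. Without that array they were 0.15, 0.10 and 0.09, positive and not called.

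The starts of Hoxa3 and Hoxa5, as genes of HoxA that were called lower with siLsd1, are shown from RefSeq (GRCm38.p6), each from 250 bases before to 50 after the annotated start and written 5′ to 3′ on the gene's own strand. Both lie on the minus strand of chromosome 6, Hoxa3 at chr6:52213018-52213317 and Hoxa5 at chr6:52204538-52204837. The Hoxa3 start shown thus lies upstream of that of Hoxa5, between the starts of Hoxa5 and Hoxa7. Which start the Hoxa3 signal came from was not checked. Capitals mark a motif found on either strand: in Hoxa3 the core bound by MEIS proteins, TGACAG or CTGTCA when read from the other strand, and in Hoxa5 the nuclear receptor core, AGGTCA or TGACCT from the other strand.
Hoxa3: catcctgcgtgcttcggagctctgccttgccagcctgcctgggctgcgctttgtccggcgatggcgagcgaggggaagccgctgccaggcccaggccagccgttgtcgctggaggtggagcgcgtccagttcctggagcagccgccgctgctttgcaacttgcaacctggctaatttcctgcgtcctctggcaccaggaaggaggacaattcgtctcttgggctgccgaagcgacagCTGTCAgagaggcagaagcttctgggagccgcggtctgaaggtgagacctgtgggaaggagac
Hoxa5: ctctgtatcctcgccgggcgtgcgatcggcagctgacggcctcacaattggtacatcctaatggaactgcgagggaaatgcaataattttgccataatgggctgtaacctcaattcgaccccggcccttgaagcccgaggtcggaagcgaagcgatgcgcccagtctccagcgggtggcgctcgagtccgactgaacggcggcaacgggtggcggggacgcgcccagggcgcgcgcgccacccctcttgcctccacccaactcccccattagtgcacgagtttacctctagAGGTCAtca
The MEIS core stood in 19.2% of all 32851 promoter windows of this length and the receptor core in 16.3%, so either match is common. Searches for the PBX-HOX composite TGATNNAT and the homeodomain palindrome TAATTA, present in 8.85% and 5.29% of all windows, found neither of them in these windows. The windows held 20 and 29 CG pairs, beside a median of 7 over all windows and 14.5 over the 22 windows of 20 Hox genes that matched. A motif match is no evidence of binding, and Hoxb3 and Hoxc13 are named only.

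The comparison of siC cells at 48 h with siC cells at 24 h asks how Hox genes moved in control cells between the times, and with the times the passage changed. Limma called 5 of 24 Hox genes, or 20.8%, against 24.2% of all genes. The 4 called higher were all of the HoxD cluster, 4 of its 6 tested genes, against 12% of all genes called higher. The 1 called lower was Hoxc13, against 12.2% of all genes called lower. The HoxD changes were positive in 6 of 6 genes with a median of 0.91, beside 0.09 in HoxA, 0.17 in HoxB and 0.01 over all genes. In HoxC 1 of 3 changes was positive and the median was −1.02.

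Hoxd3os1 (Entrez gene 73429), which RefSeq places on the strand opposite to Hoxd3 and overlapping it, had 265, 334 and 218 on the siC 48 h arrays, against 51.3 and 35.3 on the siC 24 h arrays. The groups were far apart, and the log2 change was 2.66 (SE 0.30, 95% interval 1.99 to 3.32, limma adjusted p 0.000277). In the siLsd1 cells it had 244, 216 and 119 at 48 h and 53.1 and 48.7 at 24 h, so the later arrays were the higher ones there too. A second, dimmer Hoxd3os1 probe set had 34.8, 54.2 and 50.3 on the siC 48 h arrays, against 32.8 and 38.7 on the siC 24 h arrays, and its change of 0.36 was not called in a fit of all probe sets (limma adjusted p 0.335).

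Hoxd3 (Entrez gene 15434), which shapes the uppermost neck vertebrae, had 101, 125 and 118 on the siC 48 h arrays, against 36.2 and 42.7 on the siC 24 h arrays. The groups did not overlap, and the log2 change was 1.54 (SE 0.23, 95% interval 1.03 to 2.04, limma adjusted p 0.00125). The siLsd1 arrays had 120, 127 and 73.1 at 48 h and 53.0 and 52.7 at 24 h, and the lowest 48 h value was that of replicate 3. Both probe sets shared by Hoxd4 and Hoxd3 were also higher at 48 h in siC cells, with changes of 1.62 and 1.36 in a fit of all probe sets (limma adjusted p 0.000364 and 0.00075), but they cannot be assigned to either gene. On the first of them the siC 48 h arrays had 95.3, 96.6 and 76.6, against 27.1 and 30.9 on the siC 24 h arrays. On the second the siC 48 h arrays had 124, 166 and 159, against 50.3 and 66.2 on the siC 24 h arrays. Which strand each of these probe sets reads was not checked here, and the transcripts of Hoxd3 and Hoxd3os1 overlap.

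Hoxd9 (Entrez gene 15438), which acts in the limb and the lower back, had 377, 454 and 449 on the siC 48 h arrays, against 259 and 287 on the siC 24 h arrays. Its log2 change was 0.64 (SE 0.17, limma adjusted p 0.0228), with no overlap, and the siLsd1 arrays had 409, 367 and 262 at 48 h and 235 and 239 at 24 h. Hoxd11 had 39.2, 36.6 and 47.5 on the siC 48 h arrays, against 24.5 and 13.4 on the siC 24 h arrays, a change of 1.17 (SE 0.30, limma adjusted p 0.0187). On the siLsd1 arrays Hoxd11 showed no such gap, with 38.3, 47.9 and 32.2 at 48 h and 51.8 and 36.1 at 24 h. The Hoxd9 call was lost without siC 24 h replicate 1 or 2 or siC 48 h replicate 2 or 3 (limma adjusted p 0.151, 0.0797, 0.0766 and 0.0681), and the Hoxd11 call without siC 24 h replicate 2 (change 0.74, 0.169) or siC 48 h replicate 3 (0.0603). Hoxd8 and Hoxd10 had changes of 0.22 and 0.06 and were not called.

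Hoxc13 had 68.2, 65.1 and 74.4 on the siC 48 h arrays, against 130 and 150 on the siC 24 h arrays. The groups were well apart, with a log2 change of −1.02 (SE 0.14, 95% interval −1.33 to −0.71, limma adjusted p 0.000772). On the siLsd1 arrays it had 96.6, 82.6 and 105 at 48 h and 160 and 163 at 24 h. Hoxc13 was thus lower at 48 h with either siRNA, and at each time higher with siLsd1 than with siC.

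No HoxA or HoxB gene was called between the times. The closest was Hoxa5, with 549, 622 and 666 on the siC 48 h arrays, against 421 and 437 on the siC 24 h arrays (log2 change 0.51, SE 0.18, limma adjusted p 0.0622). Its other probe set, tested together with all probe sets, changed by 0.50 (limma adjusted p 0.0385). The other tested HoxA genes had changes between −0.53, for Hoxa10, and 0.32, for Hoxa9, and the HoxB genes between −0.18, for Hoxb9, and 0.41, for Hoxb5. Hoxc6 and Hoxc9 had 0.22 and −1.22, and the Hoxc9 intensities of 30.7, 15.6 and 5.60 at 48 h, against 42.7 and 24.4 at 24 h, scattered widely.

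**Figure D3:**
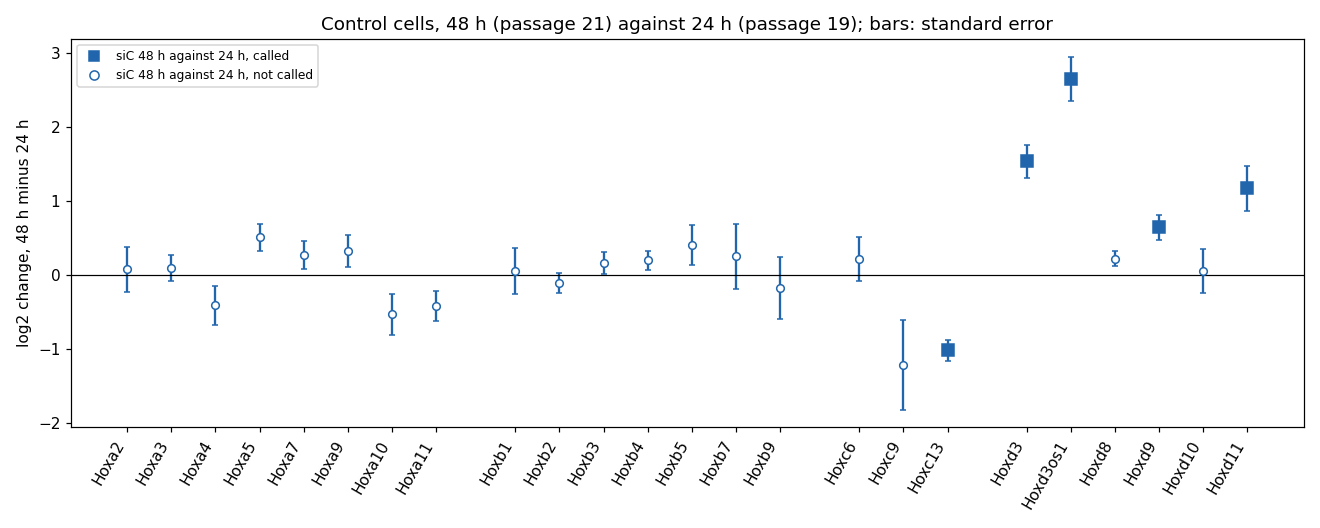
Log2 change of the 24 tested Hox genes in siC cells, 48 h (passage 21) minus 24 h (passage 19), in cluster order with standard errors; filled squares are called genes. The called genes are Hoxc13 at −1.02 and, in HoxD, Hoxd3, Hoxd3os1, Hoxd9 and Hoxd11 at 0.64 to 2.66.

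The outlying array siLsd1 48 h replicate 3 belongs to neither of these groups but enters the shared spread, and without it 7 Hox genes were called between the times, or 29.2% against 40.4% of all genes. The added ones were Hoxa5 and Hoxd8, both higher at 48 h (limma adjusted p 0.00133 and 0.0209). The count was 3 without siC 24 h replicate 2 and 3 without siC 48 h replicate 3. The calls of Hoxd3os1, Hoxd3 and Hoxc13 held with each of the 10 arrays left out in turn, with changes between 1.51 and 2.93, 1.23 and 1.66, and −1.15 and −0.87 over all alternatives tried.

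The promoters of the neighbours Hoxd3 and Hoxd3os1, whose changes between the times were the largest, are shown from the same RefSeq table, Hoxd3 on the plus strand at chr2:74711743-74712042 and Hoxd3os1 on the minus strand at chr2:74716081-74716380. Capitals mark the nuclear receptor core on the strand opposite to Hoxd3.
Hoxd3: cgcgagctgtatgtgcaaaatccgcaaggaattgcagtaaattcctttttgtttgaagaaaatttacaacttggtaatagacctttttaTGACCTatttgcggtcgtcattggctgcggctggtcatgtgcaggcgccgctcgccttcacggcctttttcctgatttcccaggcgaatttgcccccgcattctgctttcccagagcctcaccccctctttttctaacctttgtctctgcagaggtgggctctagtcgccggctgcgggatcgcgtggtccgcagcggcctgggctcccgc
Hoxd3os1: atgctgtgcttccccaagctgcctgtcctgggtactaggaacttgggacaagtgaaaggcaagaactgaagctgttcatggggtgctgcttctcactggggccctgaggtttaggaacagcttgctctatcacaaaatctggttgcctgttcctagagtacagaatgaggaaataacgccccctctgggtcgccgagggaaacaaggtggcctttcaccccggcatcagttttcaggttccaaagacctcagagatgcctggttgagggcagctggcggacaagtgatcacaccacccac
None of the other motifs was found in the Hoxd3 window and none of the motifs in that of Hoxd3os1. The windows differed in CG pairs, 20 for Hoxd3 and 5 for Hoxd3os1. Of all windows 26.5% held at least 20 such pairs and 62% at least 5.

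**Figure D4:**
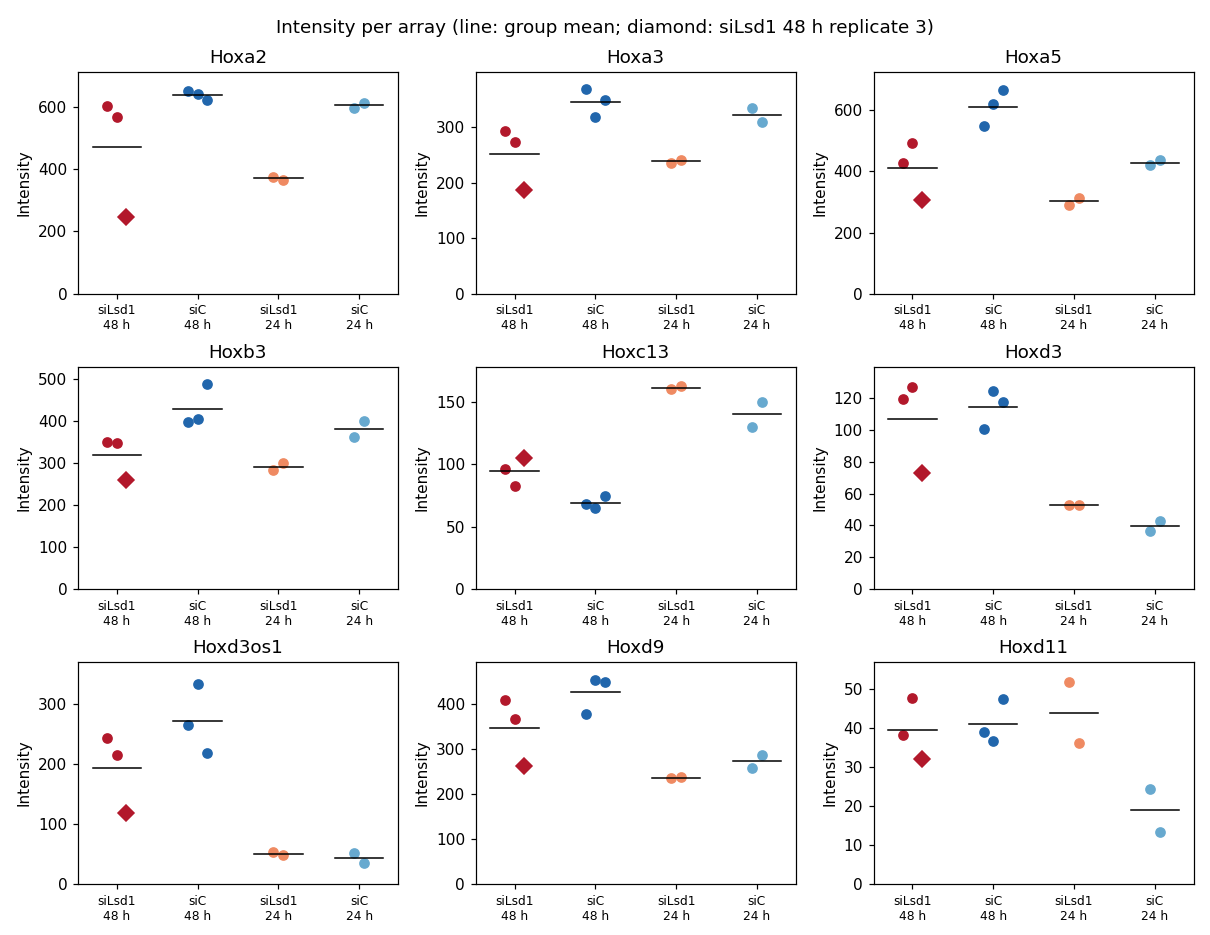
Intensity of 9 Hox genes on each array, by group in the order siLsd1 48 h, siC 48 h, siLsd1 24 h and siC 24 h; points are arrays, the diamond is siLsd1 48 h replicate 3 and lines are group means, on axes that start at 0. Hoxa2 has 246 on that array against 567 and 601 on its replicates, and Hoxd3os1 has 119 against 216 and 244.

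HOX proteins bind DNA together with cofactors of the TALE class, chiefly PBX and MEIS proteins. The list of cofactors held 13 tested genes, the PBX, MEIS, PKNOX and TGIF genes of the TALE class and the HOX or PBX partners Pbxip1, Zfhx3 and Gmnn. Of these 0 were called higher and 1 lower at 24 h, 1 and 1 at 48 h, and 1 and 4 for the mean, or 7.69, 15.4 and 38.5%, against 5.39, 12.7 and 23.8% of all genes. Pbxip1, which encodes a PBX-interacting protein, averaged 483 ± 1.07 with siLsd1 and 670 ± 63.3 with siC at 24 h (SD, n = 2 each; log2 change −0.47, limma adjusted p 0.0340). Pbx3, and Zfhx3, which encodes a zinc finger homeodomain factor outside the TALE class, fell by 0.42 and 0.51 for the mean (limma adjusted p 0.0308 and 0.0156), while Tgif1, a repressor of the TALE class, rose by 0.50 at 48 h (limma adjusted p 0.0303). Between the times 1 was called higher and 1 lower, 15.4% against 24.2% of all genes. The higher one, Meis1, averaged 873 ± 14.9 in siC cells at 48 h and 577 ± 52.4 at 24 h (SD, n = 3 and 2), a log2 change of 0.60 (limma adjusted p 0.00525). Gmnn, which encodes the replication inhibitor geminin and also binds HOX proteins, averaged 72.1 ± 8.52 at 48 h and 424 ± 35.2 at 24 h (log2 change −2.56, limma adjusted p 0.000234).

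Of 24 Trithorax and MLL complex genes, which keep Hox genes active, limma called 0 at 24 h, 0 higher and 2 lower at 48 h, and 0 higher and 4 lower for the mean, that is 0, 8.33 and 16.7%, below the 5.39, 12.7 and 23.8% of all genes. At 24 h 3 of them, or 12.5%, had an unadjusted p under 0.05, against 22.5% of all genes. Hcfc1 and Ogt, which encode the scaffold HCF1 and the sugar transferase that modifies it, had changes of −0.37 and −0.53 at 48 h (limma adjusted p 0.0268 and 0.0241). Between the times 5 were called higher and 3 lower (33.3%, against 24.2% of all genes). Among the higher were Ogt at 1.51, and Kmt2a and Kmt2b, which encode the MLL methyltransferases themselves, at 0.66 and 0.60 (limma adjusted p 8.51e-05, 0.0440 and 0.00185). The 3 called lower were Aff1, Ash2l and Psip1, at −0.57, −0.52 and −0.39.

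Of 34 Polycomb group genes, which keep Hox genes silent, 1 was called higher and 0 lower at 24 h, 4 and 3 at 48 h, and 7 and 5 for the mean, or 2.94, 20.6 and 35.3%, against 5.39, 12.7 and 23.8% of all genes. Pcgf5, a subunit of a variant Polycomb complex, averaged 1642 ± 22.0 with siLsd1 and 1008 ± 116 with siC at 48 h (SD, n = 3 each; log2 change 0.71, limma adjusted p 0.00329). Phc2 rose by 0.57 at 48 h, and Phf1 and Phc3 fell by 0.52 and 0.45 (limma adjusted p 0.00676, 0.0421 and 0.0243). Between the times 5 were called higher and 6 lower, 32.4% against 24.2% of all genes. Ezh2, the methyltransferase of the second Polycomb complex, averaged 406 ± 31.3 in siC cells at 48 h and 941 ± 9.26 at 24 h (SD, n = 3 and 2; log2 change −1.22, limma adjusted p 0.00108), and Cbx2 rose by 0.72 (limma adjusted p 0.00141).

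Retinoic acid, CDX factors and cohesin act on Hox clusters from outside, and of 18 such genes tested 0 were called higher and 3 lower at 24 h, 0 and 1 at 48 h, and 0 and 6 for the mean. These were 16.7, 5.56 and 33.3% of them, against 5.39, 12.7 and 23.8% of all genes. Cyp26b1, which encodes an enzyme that degrades retinoic acid, averaged 507 ± 69.4 with siLsd1 and 957 ± 90.2 with siC at 24 h (SD, n = 2 each; log2 change −0.92, limma adjusted p 0.0245). Stag1, a cohesin subunit gene, had −0.79 at 24 h and −0.65 at 48 h (limma adjusted p 0.0330 and 0.0224), and Rxra, a retinoid receptor gene, −0.50 for the mean (0.0165). Between the times 1 was called higher and 5 lower (33.3%, where 24.2% of all genes were called), with Cyp26b1 at −1.46 (limma adjusted p 0.000359).

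Genes that flank the Hox clusters share the chromosome but not the family, and of 27 tested 1 was called higher and 1 lower at 24 h, 3 and 2 at 48 h, and 7 and 4 for the mean. The shares were 7.41, 18.5 and 40.7%, against 5.39, 12.7 and 23.8% of all genes. Nfe2l1, Snx11 and Cdk5rap3, with 3, 1 and 5 protein-coding genes between them and HoxB, had changes of 0.66, 0.59 and −0.64 at 48 h (limma adjusted p 0.0116, 0.0316 and 0.00855). Between the times 3 were called higher and 4 lower (25.9%, against 24.2% of all genes). The largest change was that of Calcoco1, next to HoxC, at 0.93 (limma adjusted p 0.00271). Lnpk, with 1 protein-coding gene between it and HoxD, had −0.57 (limma adjusted p 0.0366). Whether genes around HoxD changed together was not tested.

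Other transcription factor genes known for positional patterns in fibroblasts numbered 39, of which limma called 0 at 24 h, 2 higher and 0 lower at 48 h, and 3 and 3 for the mean. These shares of 0, 5.13 and 15.4% lay below the 5.39, 12.7 and 23.8% of all genes, and the 7 with an unadjusted p under 0.05 at 24 h were 17.9%, against 22.5% of all genes. Dlx2 and Foxf1 rose by 0.78 and 0.53 at 48 h (limma adjusted p 0.00549 and 0.0210), and Prrx2, Shox2 and Lhx2 fell by 0.42, 0.50 and 0.79 for the mean (0.0255, 0.0467 and 0.0138). Between the times 1 was called higher and 4 lower, 12.8% against 24.2% of all genes. Dlx1 and Dlx2, which lie on the same chromosome as the HoxD cluster, had changes of −1.22 and −1.42 (limma adjusted p 0.000151 and 0.000113).

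Among the LSD1 and CoREST complex genes 12 were tested, counting Kdm1a, the target of the siRNA. Only Kdm1a was called lower at each time, and 3 were called lower for the mean, Kdm1a, Zmym3 and Phf21a. These were 8.33, 8.33 and 25%, where 2.79, 6.67 and 13.7% of all genes were called lower. The calls at 24 h and 48 h are thus the knockdown itself, and no partner gene was called at either time. Of 13 fibroblast and preadipocyte markers, 0 were called higher and 3 lower at 24 h, 0 and 1 at 48 h and 0 and 6 for the mean, and 0 and 2 between the times. The shares called lower were 23.1, 7.69 and 46.2% with siLsd1 and 15.4% between the times, against 2.79, 6.67, 13.7 and 12.2% of all genes. Thy1 fell by 0.83 at each time (limma adjusted p 0.0112 and 0.00412). Their summed intensity ranged from 71389 to 71733 with siLsd1 and from 81546 to 83645 with siC at 24 h, and from 57732 to 77757 with siLsd1 and from 84186 to 85135 with siC at 48 h, and its part in the Hox changes was not tested. Of 6 mature adipocyte markers, Fabp4, which encodes a fatty acid carrier, was called lower with siLsd1 at each time (−1.28 and −1.16, limma adjusted p 0.0358 and 0.0183). Pnpla2, which encodes a triglyceride lipase, was called higher with siLsd1 for the mean (0.31, limma adjusted p 0.0406), and the receptor gene Adipor2 was called higher in siC cells at 48 h than at 24 h (0.27, limma adjusted p 0.0316). The shares of these 6 markers called were 16.7, 16.7 and 33.3% with siLsd1 and 16.7% between the times, against 5.39, 12.7, 23.8 and 24.2% of all genes. Limma called 0 of 6 macrophage and leukocyte, 0 of 2 endothelial and 0 of 4 epithelial and neural markers in the siLsd1 comparisons, where 1, the neural marker Map2 at −0.51 at 48 h, had an unadjusted p under 0.05. Beside the 5.39, 12.7 and 23.8% of all genes called, 0 calls among so few markers says little about them. Between the times Lyz2 alone among these markers was called, at −1.03 (limma adjusted p 0.0436), where 24.2% of all genes were called. The difference between the times in the siLsd1 change was called for 0 genes of these lists, as for all genes.

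With siLsd1 48 h replicate 3 left out, the share of all genes called was 25.5% for the 24 h comparison, 18.1% for the 48 h one and 33.8% over both times. In that fit the cofactor list had 46.2, 30.8 and 53.8% called and the Trithorax and MLL genes 16.7, 12.5 and 20.8%. Of the Polycomb genes 35.3, 35.3 and 47.1% were called, and of the retinoid, CDX and cohesin genes 50, 22.2 and 44.4%. The flanking genes had 29.6, 18.5 and 51.9% called, the other positional factors 20.5, 10.3 and 17.9%, and the LSD1 and CoREST genes, Kdm1a included, 41.7, 16.7 and 33.3%. In these siLsd1 comparisons the cofactors stayed above the share of all genes, and the Trithorax and MLL genes and the other positional factors below it. The retinoid, CDX and cohesin genes at 48 h and the Polycomb genes at 24 h lay below it with that array and above it without. The LSD1 and CoREST genes for the mean lay above it with that array and below it without. In siC cells between the times the cofactors had 38.5% called and the Trithorax and MLL genes 45.8%, against 40.4% of all genes, also without that array. Of the 13 fibroblast and preadipocyte markers 8, 4 and 9 were called, all lower, or 61.5, 30.8 and 69.2%. Of the 6 macrophage and leukocyte markers 2 (33.3%) were called at 24 h, none at the later time, and 2 (33.3%) over both times. The 48 h change of Fabp4 was −0.81, and that of Stag1 −0.45; both were called (limma adjusted p 0.000187 and 0.000537). The difference between the times was called for 2 of 13 fibroblast and preadipocyte markers (15.4%), one of them Fn1 at 0.41 (limma adjusted p 0.0206). It was called for 1 of 27 flanking genes (3.7%), and for 1.47% of all genes.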

How the data were processed

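Total RNA of 10 samples of 3T3-L1 cells was labelled with biotin and hybridised to Affymetrix arrays, per the labels' protocols. The deposited values are intensities on a linear scale, 1 per probe set and array; the summarisation and normalization the authors used are not given in the sources used here. Log2 of the intensity was taken with nothing added. Probe sets with 1 gene symbol in the platform annotation (34945 of 45037) were used, 932 with several symbols and 9160 with none were left out, and the probe set with the highest mean stood for its gene. The 25% of genes with the lowest mean were left out as dim, which left 13644 of 18193.

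A mean for each of 4 groups was fitted with limma 3.58.1 in R 4.3.3 (lmFit, eBayes with an intensity trend, 6 residual degrees of freedom), with Benjamini-Hochberg adjustment within each of 5 comparisons. The fit was tested on simulated data. Means ± SD are of linear intensities. The Hox genes, the companion lists and the tests were chosen with earlier results of these data known. Array values are given for Kdm1a and each Hox gene called, and from each list up to 3 called genes per direction with the largest change were eligible for naming. Motifs were searched with Python 3.11.15, and figures drawn with matplotlib 3.10.9. Alternatives were other rules for probe sets and dim genes, other scalings and pseudocounts, array weights, no trend, fewer arrays, a replicate block, and each array left out in turn.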

Additional observations from a re-analysis of the deposited data

How the results depend on the processing

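No Hox change called with all arrays turned sign under any alternative; without siLsd1 48 h replicate 3, of 24 Hox changes 0 turned sign at 24 h, 7 at 48 h, 2 for the mean, 4 for the difference between the times and 0 in siC cells between the times. For siLsd1 against siC at 24 h the count of Hox genes called, 0, became 1 with arrays centred on the median, 6 with array weights and 5 with only the arrays compared fitted, and lay between 0 and 6 with each array left out. At 48 h the count of 2 became 1 with probe sets averaged per gene, 1 with all probe sets tested singly, 1 with no filter on dim genes, 1 with no intensity trend, 7 with array weights, 0 with only the arrays compared, and 0 to 3 with an array left out. For the mean of both times the count of 4 became 9 with array weights and 0 to 7 with an array left out, and for the difference between the times 0 became 0 to 1. In siC cells between the times the count of 5 became 3 with the lowest 50% of genes left out, which leaves 11 Hox genes, 9 with array weights, and 3 to 7 with an array left out. Over all alternatives the count over all genes ranged from 30 to 3571 at 24 h, 250 to 4922 at 48 h, 1346 to 5602 for the mean, 0 to 434 for the difference and 1482 to 6192 between the times. Whether equal replicate numbers pair the arrays could not be settled. Correlations of same-numbered deviations from the group means were −0.07 at 24 h and −0.19, 0.05 and −0.06 at 48 h. With groups of 2 or 3 arrays such deviations are tied to each other, so these values cannot exclude pairing. With a replicate block the Hox counts were 0 at 24 h, 0 at 48 h, 2 for the mean (Hoxa3 and Hoxa5) and 0 for the difference. The block could not be fitted for the siC time comparison, and fitting only the arrays compared does not apply to the mean or the difference. Centring moved all changes between the times by −0.14. Groups of 2 or 3 arrays limit all of these calls.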
